A study of Mus musculus with 33 samples.

Results

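The genes described here are the cytochrome P450 genes of families 1, 2 and 3 in mouse liver. They were chosen by gene name: a deposited gene belonged when its name read Cyp1, Cyp2 or Cyp3 followed by a subfamily letter and a number, leaving out Cyp2c70 and the pseudogenes whose names end in -ps. This gave 34 of the 11125 genes in the deposited expression table, with 1 gene in family 1, 29 in family 2 and 4 in family 3. A further 18 genes with such names stood only in the raw count table, where the highest count of any of them in a library was 49 (Cyp3a44). The 34 genes comprised 10 of subfamily Cyp2c, 5 of Cyp2d, 4 each of Cyp2a and Cyp3a, 3 each of Cyp2b and Cyp2j, and 1 each of Cyp1a, Cyp2e, Cyp2f, Cyp2r and Cyp2u. The tags of 33 of them were abundant enough to be tested, and Cyp3a59 was not.

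P450 enzymes of these families are haem proteins of the endoplasmic reticulum that insert oxygen into drugs, steroids, bile acids and fatty acids, using electrons passed on by the reductase Por. Hepatocytes express many of them at high levels, most strongly around the central vein. Their genes lie in clusters of close paralogs, and their transcription follows the xenobiotic receptors CAR (Nr1i3), PXR (Nr1i2) and AhR (Ahr), liver factors such as HNF4A, and, for some genes, the sex-dependent pattern of growth hormone.

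The study asked what happens in livers that lack glucose-6-phosphatase, a model of glycogen storage disease type Ia, when the activity of the glucose-responsive transcription factor ChREBP (Mlxipl) is brought back to the level of normal liver. Total RNA of livers from male C57BL/6J mice was read as 3' end tags, in 33 libraries. The labels give an age of 13 to 18 weeks, which by the study's methods was the age when the hairpin was delivered, before the deletion of G6pc. The G6PCp group (shChREBP/L-G6pc-/-, n = 9) lacked hepatic G6pc and carried a short hairpin RNA against ChREBP. The G6PC group (shSCR/L-G6pc-/-, n = 8) lacked G6pc and carried a scrambled hairpin, the WTp group (shChREBP/L-G6pc+/+, n = 8) had G6pc and the ChREBP hairpin, and the WT group (shSCR/L-G6pc+/+, n = 8) had G6pc and the scrambled hairpin. By the study's methods, G6pc was removed in G6pc lox/lox mice by a tamoxifen-inducible Cre under the albumin promoter, the L-G6pc+/+ mice were littermates without Cre, every group received tamoxifen, and the hairpins were delivered by an adeno-associated virus from a U6 promoter. Whether every library came from its own mouse is not stated in the labels, so n counts libraries and every p-value measures the spread between libraries.

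Library depth ranged between 1497843 and 3546852 counts, with a median of 2141043, so that 1 CPM (a count scaled by library size) was about 2.14 counts in the median library. Mlxipl itself ranged from 216 to 500 CPM in G6PCp livers against 514 to 633 CPM in G6PC livers, and from 292 to 413 CPM in WTp livers against 449 to 612 CPM in WT livers, without overlap in either pair. Pklr, a ChREBP target, had a median of 204 CPM in G6PCp, 304 in G6PC, 62.9 in WTp and 122 in WT livers. Tags of G6pc had medians of 218, 276, 162 and 236 CPM in G6PCp, G6PC, WTp and WT livers; the sources used here do not give the part of the gene that was deleted, so these tags do not check the genotype. Within G6PCp, libraries s29, s30, s32 and s33 stood apart on the main axis of variation over all tested genes (26.8 to 35.6, against -1.47 to 7.70 for the other 5), and each result below that rests on them is also given without them. All 10 hepatocyte markers were present. Their summed level was 36464 to 53996 CPM in G6PCp, 38967 to 49251 in G6PC, 53098 to 65919 in WTp and 49844 to 71399 in WT livers, and Alb had medians of 5627 CPM in G6PCp, 8553 in G6PC, 11865 in WTp and 14508 in WT livers. Alb was lower in G6PCp than in G6PC (log2 fold change -0.52, edgeR adjusted p = 0.00410), WTp (-1.07, 6.63e-08) and WT livers (-1.31, 5.22e-10), and lower in G6PC than in WT livers (-0.79, 3.68e-05). Only the L-G6pc-/- groups carried the albumin Cre. In the Alb differences from WTp and WT livers, Cre and the loss of G6pc cannot be told apart. Of the 10 hepatocyte markers, 4 were lower in G6PCp than in WT livers (Alb, Apoa1, Serpina1b and Ttr) and 3 than in G6PC livers (Alb, Serpina1b and Ttr), with none higher. Of all genes, 6.37% and 4.23% were lower in these comparisons, and 6.87% and 3.33% higher. With libraries s29, s30, s32 and s33 left out Alb alone was lower than in WT (-1.11, 5.19e-07) and WTp livers (-0.87, 2.26e-05), and none of the 10 was called against G6PC livers. For the 9 macrophage markers found the sums were 1484 to 2344, 933 to 2231, 929 to 2691 and 980 to 1706 CPM in the same order, and C1qa, C1qc and Clec4f were higher in G6PCp than in G6PC livers (0 of the 9 without the 4 libraries). Sums of the 10 endothelial markers were 382 to 455, 320 to 432, 390 to 590 and 363 to 477 CPM, those of the 10 stellate cell markers 431 to 653, 340 to 557, 433 to 632 and 403 to 543 CPM, and those of the 10 cholangiocyte markers 197 to 446, 148 to 208, 152 to 289 and 140 to 185 CPM. The 10 T and B cell markers summed to at most 10.3 CPM in any library. In whole liver, fewer cells of a type and less RNA per cell cannot be told apart, and the part of these shifts in the P450 results was not tested.

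Close paralogs can share reads, so the 3' ends were compared before the levels. In the last 500 bases of each gene's longest coding transcript (GENCODE M21, GRCm38), every window of 50 bases, the read length, was looked up in the transcripts of all other genes. No window was shared for 13 of the 34 genes, among them Cyp1a2, Cyp2b9, Cyp2c29, Cyp2c38, Cyp2c44, Cyp2d22, Cyp2f2, Cyp2j5, Cyp2j6 and Cyp3a13. This covers their own last 500 bases only: windows of Cyp2d9 and Cyp2d26 matched transcripts of Cyp2d22. For 15 genes over 10% of windows were shared: 44.3% for Cyp2a4 (with Cyp2a5 and a pseudogene) and 12.4% for Cyp2a5 (with Cyp2a4), 74.3% for Cyp2c40, 51.2% for Cyp2c67 and Cyp2c68, 38.4% for Cyp2c69 (within this group of 4), 30.4% for Cyp2c37, 27.5% for Cyp2c50 and 27.1% for Cyp2c54 (within this trio), 33.5% for Cyp2d40, 25.7% for Cyp2d26, 23.9% for Cyp2d9 and 21.7% for Cyp2d10 (with other Cyp2d genes and pseudogenes), 18.8% for Cyp2e1 (with Fcho2 and 2 unnamed gene models) and 16.4% for Cyp2a12 (with Cyp2a22). How reads matching several genes were counted is not given in the sources used here.

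The most alike genes in these families also have nearly the same sequence just before their start. RefSeq promoters (GRCm38.p6) were found for 30 of the 34 genes. Those of Cyp2a4 and Cyp2a5 are shown because these neighbours had different tag levels in the 4 groups. Both lines give 210 bases of the plus strand, Cyp2a4 at chr7:26306943-26307152 and Cyp2a5 at chr7:26835089-26835298, ending 40 and 41 bases before the RefSeq start. Capitals mark the 4 positions at which they differ.
Cyp2a4: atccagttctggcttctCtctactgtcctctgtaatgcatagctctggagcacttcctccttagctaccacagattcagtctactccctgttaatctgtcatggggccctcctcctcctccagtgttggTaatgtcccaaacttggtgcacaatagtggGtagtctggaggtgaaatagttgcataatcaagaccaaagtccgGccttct
Cyp2a5: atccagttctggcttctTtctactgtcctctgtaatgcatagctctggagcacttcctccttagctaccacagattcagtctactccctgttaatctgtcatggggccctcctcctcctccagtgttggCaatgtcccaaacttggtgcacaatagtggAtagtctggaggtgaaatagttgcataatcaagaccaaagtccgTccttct
Cyp2b9 and Cyp2b13 are shown for the same reason. Their lines cover chr7:26173159-26173368 and chr7:26061245-26061454 on the plus strand, ending 41 bases before the start, with capitals at the 2 positions that differ.
Cyp2b9: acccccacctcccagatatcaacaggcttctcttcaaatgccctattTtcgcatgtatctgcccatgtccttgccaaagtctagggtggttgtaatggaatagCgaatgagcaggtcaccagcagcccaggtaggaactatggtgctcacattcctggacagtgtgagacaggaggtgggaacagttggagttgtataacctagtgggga
Cyp2b13: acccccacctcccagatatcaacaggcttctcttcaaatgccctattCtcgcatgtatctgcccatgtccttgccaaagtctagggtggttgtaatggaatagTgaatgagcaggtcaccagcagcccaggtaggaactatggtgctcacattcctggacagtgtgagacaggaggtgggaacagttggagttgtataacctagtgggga

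In contrast, the 250 bases before the start of Cyp2c37 and Cyp2c50 were 87.8% identical over the aligned bases, those of Cyp2d9 and Cyp2d10 85%, those of Cyp2a12 and Cyp2a22 88.7%, and those of Cyp2b9 and Cyp2b10 73.8%. A set of known regulatory motifs was searched in these 250 bases on both strands. The HNF4A element CAAAGTCCA was found in 5 of 30 genes (16.7%), against 0.384% of the 32851 mouse promoters in the same table. It lay in the promoters of Cyp2c40, Cyp2c67, Cyp2c68, Cyp2c69 and Cyp3a11, which are shown with the element in capitals because the Cyp2c40 group differed in its calls. All 5 are on the minus strand, at chr19:39812836-39812874, chr19:39649144-39649182, chr19:39741155-39741193, chr19:39886821-39886859 and chr5:145879940-145879978.
Cyp2c40: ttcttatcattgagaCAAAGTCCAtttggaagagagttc
Cyp2c67: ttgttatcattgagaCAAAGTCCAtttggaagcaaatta
Cyp2c68: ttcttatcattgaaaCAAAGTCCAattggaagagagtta
Cyp2c69: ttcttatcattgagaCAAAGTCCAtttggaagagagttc
Cyp3a11: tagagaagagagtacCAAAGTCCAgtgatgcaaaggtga
The 4 Cyp2c stretches share most of their letters and are copies of each other, so they do not count as 4 separate matches. The nuclear receptor half-site AGGTCA was in 8 of 30 genes (26.7%, against 14% of all promoters), the AhR core GCGTG in 3 (10%, against 28.2%) and the E-box CACGTG in 1 (3.33%, against 6.02%). Neither the antioxidant element TGACNNNGC (10.2% of all promoters) nor the STAT element TTCNNNGAA (7.02%) occurred, and the half-site read on the opposite strand opens with the letters TGAC of the antioxidant element. A match describes these letters only.

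The 34 genes together gave a median of 5638 CPM in G6PCp, 7881 in G6PC, 6271 in WTp and 6623 in WT livers. Because each transcript yields about 1 tag at its 3' end, CPM was not divided by length. By mean over the 33 libraries, the highest levels were those of Cyp3a11 (933 CPM), Cyp2c29 (694), Cyp2e1 (632), Cyp2j5 (591), Cyp2a12 (557) and Cyp2d10 (407). The lowest tested genes were Cyp2j9, Cyp2b13 and Cyp2r1, whose group means stayed between 3.27 and 10.97 CPM. By subfamily, the summed Cyp2a level had medians of 1172 CPM in G6PCp and 1168 in G6PC livers, against 495 in WTp and 863 in WT livers. The summed Cyp2c level was 696 CPM in G6PCp livers, against 1472 in G6PC, 1051 in WTp and 1326 in WT livers. Summed Cyp2d (979, 1227, 1416 and 1119 CPM in the same order) and Cyp3a (1253, 1741, 1257 and 1195 CPM) overlapped widely between groups.

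**Figure D1:**
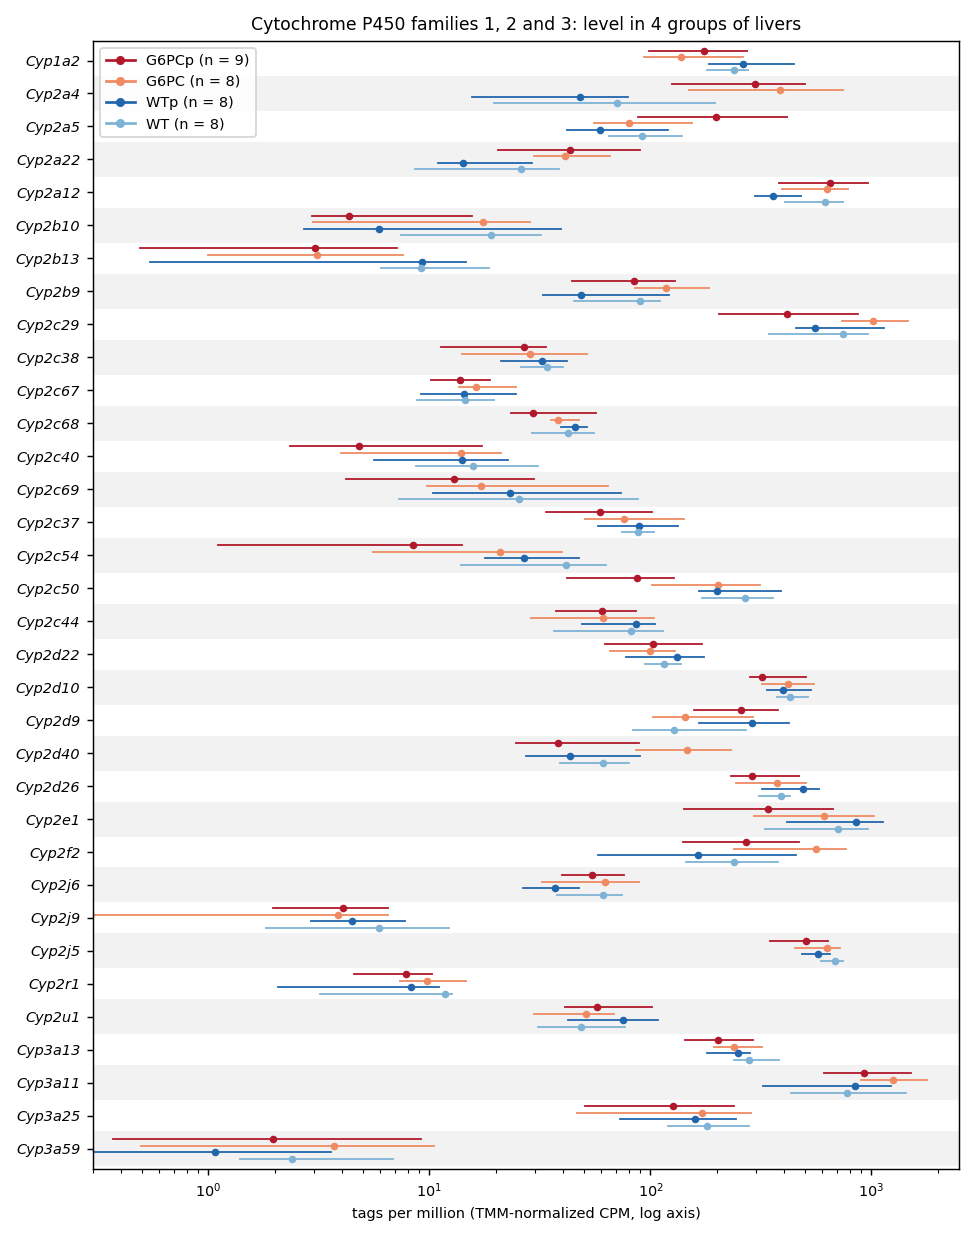
Level of each of the 34 genes in TMM-normalized CPM (log axis), with the median as a point and the lowest to highest library as a line, for G6PCp (n = 9), G6PC (n = 8), WTp (n = 8) and WT (n = 8). Lines that start at the left edge reach a library at 0 (Cyp2j9 in G6PC, Cyp3a59 in WTp). Cyp2a4 is highest in both L-G6pc-/- groups, and Cyp2c54 is lowest in G6PCp livers.

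Group differences were tested for 10179 genes in a single edgeR fit over the 33 libraries, and a gene was called at an adjusted p under 0.05. Of the 33 P450 genes tested, 22 were called in at least 1 of 6 comparisons and 11 in none: Cyp2b9, Cyp2c38, Cyp2c44, Cyp2c67, Cyp2d10, Cyp2d22, Cyp2j9, Cyp2r1, Cyp2u1, Cyp3a11 and Cyp3a25. In G6PC against WT livers 3 genes were higher (9.09%, against 2.2% of all genes) and 1 was lower (3.03%, against 1.03%). In WTp against WT livers 1 was higher (3.03%, against 2.16%) and 2 were lower (6.06%, against 3.23%). In G6PCp against G6PC livers 2 were higher (6.06%, against 3.33%) and 5 lower (15.2%, against 4.23%). In G6PCp against WTp livers 5 were higher (15.2%, against 6.14%) and 8 lower (24.2%, against 4.9%), and in G6PCp against WT livers 4 were higher (12.1%, against 6.87%) and 11 lower (33.3%, against 6.37%). The median log2 fold change of the 33 genes was -0.07, -0.22, -0.27, -0.25 and -0.37 in these comparisons, while that of all genes lay between -0.01 and 0.03. Comparisons that use the same group share its libraries, so these counts are not independent of each other. Without libraries s29, s30, s32 and s33 the counts were 2 in G6PCp against G6PC livers, 11 against WTp and 4 against WT livers. The calls over all genes, 10399 then tested, fell as well. In G6PCp against G6PC livers they were 36 higher and 70 lower (339 and 431 with all libraries). Against WT livers they were 175 and 146 (699 and 648 with all libraries), and against WTp livers 551 and 362. The fall in P450 calls was thus not particular to these genes.

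**Figure D2:**
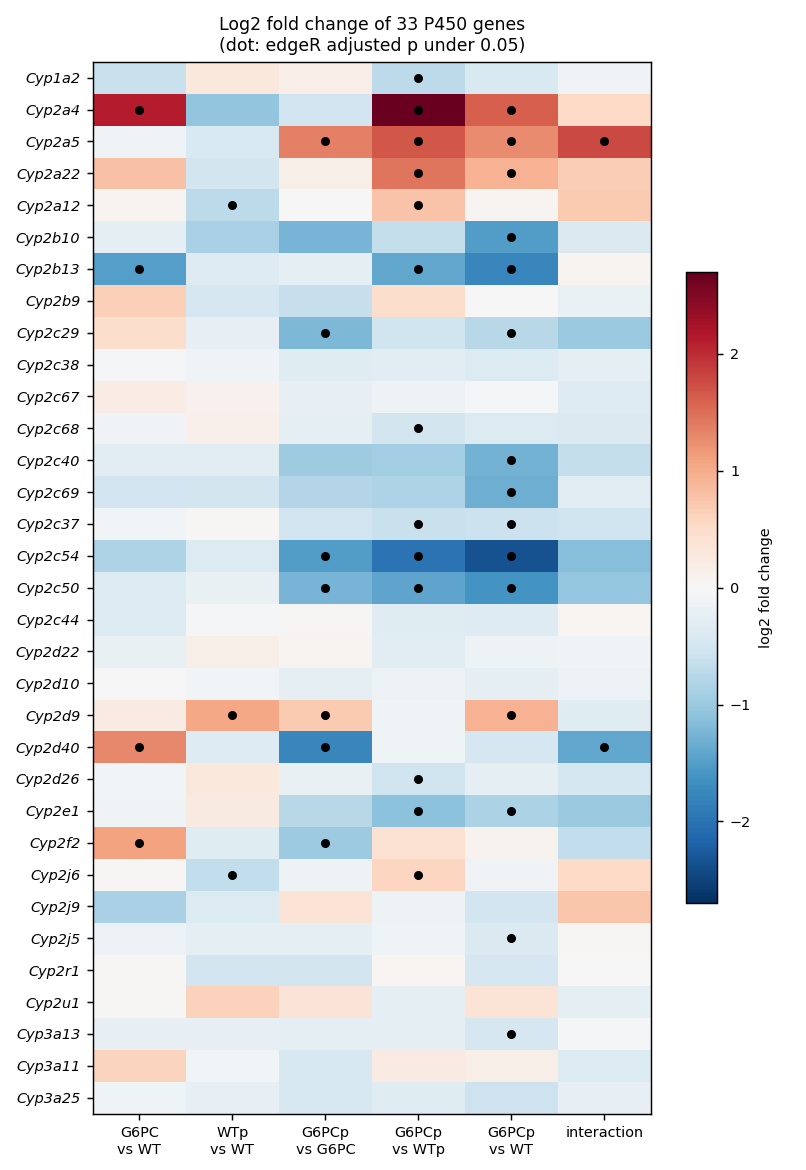
Log2 fold change (colour, red higher and blue lower in the group named first) of the 33 tested genes, in rows, in 6 comparisons, in columns. The last column is the shChREBP effect in L-G6pc-/- minus that in L-G6pc+/+ livers. A dot marks an edgeR adjusted p under 0.05, and most dots lie in the G6PCp against WTp and G6PCp against WT columns.

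In the Cyp2a cluster of chromosome 7, Cyp2a4 and Cyp2a5 moved at different steps. Cyp2a4, a testosterone hydroxylase that is higher in female mouse liver, ranged from 126 to 500 CPM (median 297) in G6PCp, 149 to 741 (386) in G6PC, 15.5 to 79.3 (47.9) in WTp and 19.6 to 197 (70.5) in WT livers. Every G6PCp library was above every WTp library, and 8 of 8 G6PC libraries were above the WT median. It was 4.35-fold higher in G6PC than in WT livers (log2 fold change 2.12 ± 0.36 SE, adjusted p = 1.84e-04), 6.36-fold higher in G6PCp than in WTp livers (adjusted p = 7.76e-06) and higher in G6PCp than in WT livers (log2 fold change 1.61, adjusted p = 0.00150, and 1.18, 0.0869, without the 4 libraries that stood apart). For G6PCp against G6PC livers its log2 fold change was -0.51 (adjusted p = 0.383), and for WTp against WT livers it was -1.06 (0.0818, and -1.21, 0.0475, without s2).

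Cyp2a5, which hydroxylates coumarin and nicotine and is known to be induced in injured liver, ranged from 87.5 to 415 CPM (median 198) in G6PCp, against 55.3 to 154 (79.7) in G6PC, 42.0 to 121 (59.4) in WTp and 65.1 to 140 (91.4) in WT livers. Its higher level was thus seen in G6PCp livers, and the 3 highest values, 342, 358 and 415 CPM, came from libraries s30, s29 and s32. The log2 fold change was 1.37 ± 0.26 (SE) in G6PCp against G6PC livers (adjusted p = 5.65e-04), 1.67 ± 0.26 against WTp (3.32e-05) and 1.27 ± 0.25 against WT (6.38e-04). Without libraries s29, s30, s32 and s33 it was 0.79 (adjusted p = 0.104), 1.10 (0.00385) and 0.69 (0.111) in the same order. In G6PC against WT livers the value was -0.10 (adjusted p = 0.908).

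Since Cyp2a4 and Cyp2a5 share 3' windows, their tags were also added up. The sum was higher in G6PC than in WT livers (log2 fold change 1.43, adjusted p = 7.64e-04), and in G6PCp against G6PC livers its log2 fold change was 0.03 (adjusted p = 0.966). Cyp2a4 made up 47.5% to 67.0% of the 2 genes' tags in G6PCp livers, 70.5% to 92.2% in G6PC, 25.4% to 58.8% in WTp and 18.7% to 75.2% in WT livers. The ranges of the G6PCp and G6PC groups did not overlap.

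**Figure D3:**
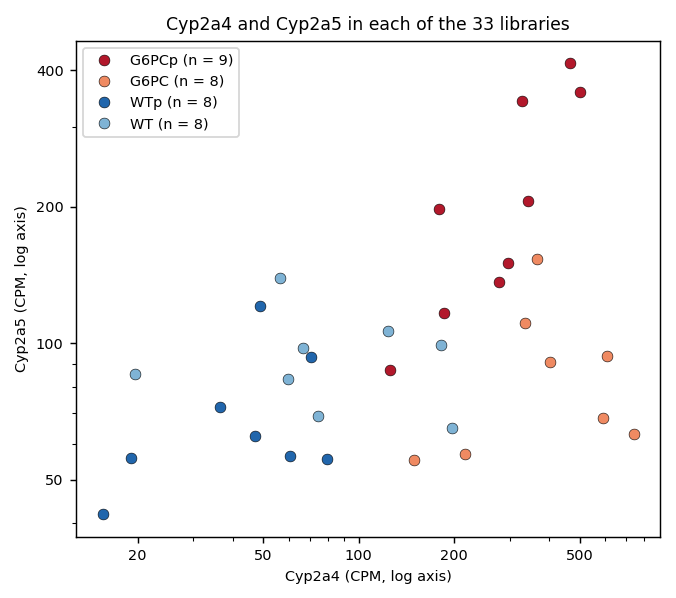
Cyp2a4 (x axis) against Cyp2a5 (y axis) in CPM on log axes, with 1 point for each of the 33 libraries. G6PC livers lie at 149 to 741 CPM of Cyp2a4 with 55.3 to 154 CPM of Cyp2a5, and G6PCp livers at 126 to 500 CPM of Cyp2a4 with 87.5 to 415 CPM of Cyp2a5.

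The other Cyp2a genes had their lowest medians in WTp livers. Cyp2a12, a steroid hydroxylase that also rehydroxylates secondary bile acids in mice, ranged from 297 to 482 CPM (median 358) in WTp livers, against 406 to 741 (615) in WT livers, and fell by 0.70 on the log2 scale (adjusted p = 0.00796). In G6PCp livers it ranged from 382 to 963 CPM (652) and in G6PC livers from 393 to 782 (631), and G6PCp was above WTp (log2 fold change 0.77, adjusted p = 0.00104). Cyp2a22 ranged from 20.5 to 89.4 CPM (43.4) in G6PCp, 29.7 to 65.9 (40.8) in G6PC, 10.9 to 29.2 (14.2) in WTp and 8.58 to 38.4 (25.9) in WT livers. It was higher in G6PCp than in WTp livers (log2 fold change 1.44, adjusted p = 9.75e-04) and than in WT livers (0.94, 0.0170). The call against WT was lost without library s26 (0.76, adjusted p = 0.0533) and without the 4 libraries that stood apart (1.05, 0.0637).

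In the Cyp2d cluster of chromosome 15, Cyp2d40 was high in G6PC livers alone among the groups by median. It ranged from 24.7 to 88.4 CPM (median 38.2) in G6PCp, 85.7 to 232 (146) in G6PC, 27.3 to 89.3 (43.2) in WTp and 39.1 to 80.2 (61.0) in WT livers. No G6PC library overlapped the WT range, and 1 G6PCp library (s31, 88.4 CPM) reached into the G6PC range. Cyp2d40 was 2.47-fold higher in G6PC than in WT livers (log2 fold change 1.30 ± 0.21 SE, adjusted p = 1.02e-04) and 3.37-fold lower in G6PCp than in G6PC livers (-1.75 ± 0.21, 7.13e-07), where the value without the 4 libraries was -1.51 (adjusted p = 8.72e-04). In G6PCp against WT livers the log2 fold change was -0.45 (adjusted p = 0.173, and -0.63, 0.0287, without s31). Its tags were also added to those of Cyp2d9, Cyp2d10, Cyp2d11 and Cyp2d34. The sum's log2 fold change was 0.23 in G6PC against WT (adjusted p = 0.478) and -0.13 in G6PCp against G6PC livers (0.612). Cyp2d10 and Cyp2d9 had higher levels (means 407 and 217 CPM, against 76.0 for Cyp2d40), so the sum mostly follows them. It also leaves out Cyp2d26, with which Cyp2d40 shared windows. The sum thus cannot check the Cyp2d40 calls, and the part of shared reads in them was not tested.

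Cyp2d9, a testosterone hydroxylase that is higher in male mouse liver, followed the ChREBP hairpin in both genotypes. Its levels were 157 to 376 CPM (median 257) in G6PCp livers, against 102 to 290 (143) in G6PC livers, and 165 to 422 (288) in WTp livers, against 83.3 to 271 (128) in WT livers. The log2 fold change was 0.71 ± 0.23 (SE) in G6PCp against G6PC livers (adjusted p = 0.0431, 9 of 9 libraries above the G6PC median) and 1.04 ± 0.23 in WTp against WT livers (adjusted p = 0.00732, 8 of 8 above the WT median). In G6PCp against WT livers it was 0.93 (adjusted p = 0.00436, and 0.89, 0.0610, without the 4 libraries). The call against G6PC was lost (adjusted p up to 0.0914) when any of 13 single libraries, s17 to s22, s25, s26 or s29 to s33, was left out. Without the 4 the value against G6PC was 0.68 (0.269). When the tags of Cyp2d9, Cyp2d10, Cyp2d11, Cyp2d34 and Cyp2d40 were added up, the sum's log2 fold change was -0.13 in G6PCp against G6PC livers (adjusted p = 0.612) and 0.24 in WTp against WT livers (0.335). Cyp2d10 had the higher level (mean 407 CPM, against 217 for Cyp2d9), so this sum cannot check Cyp2d9 alone.

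The remaining Cyp2d genes moved less. Cyp2d10 ranged from 282 to 504 CPM (median 320) in G6PCp, 321 to 551 (418) in G6PC, 336 to 530 (396) in WTp and 373 to 514 (430) in WT livers, overlapping throughout. Cyp2d26 ranged from 231 to 470 CPM (287) in G6PCp livers, 243 to 508 (375) in G6PC, 320 to 582 (490) in WTp and 308 to 430 (389) in WT livers, and was lower in G6PCp than in WTp livers (log2 fold change -0.54, adjusted p = 0.00802). Cyp2d22 had medians of 102, 99.5, 132 and 115 CPM in G6PCp, G6PC, WTp and WT livers and was called in no comparison.

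**Figure D4:**
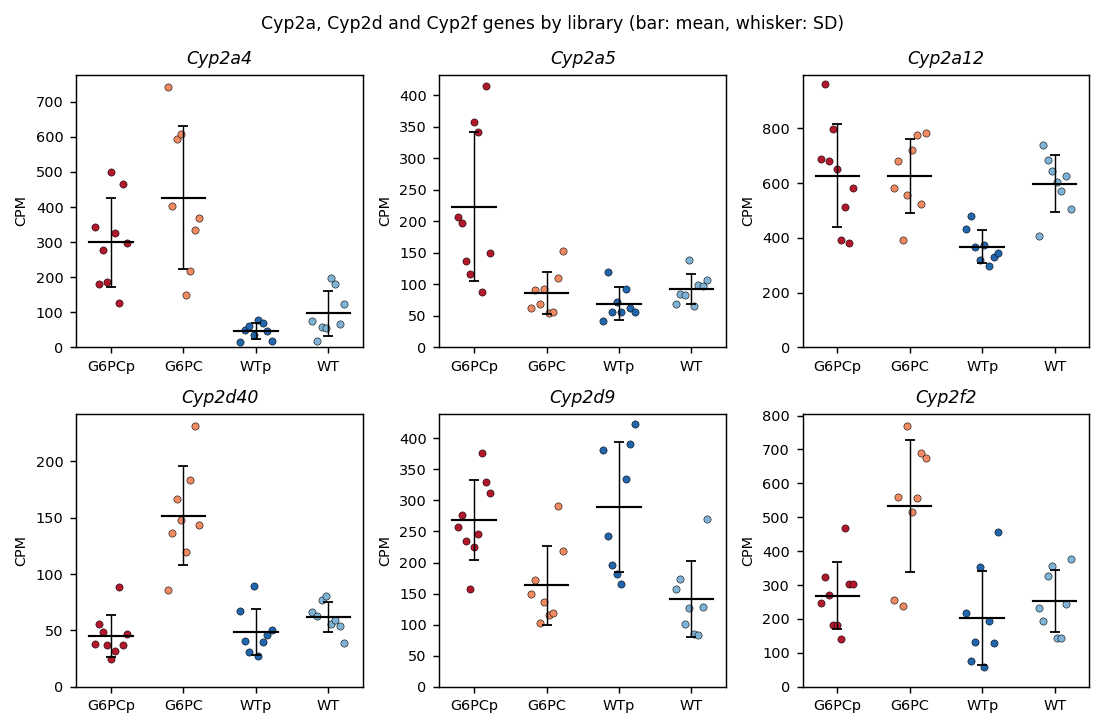
CPM in each library (points) of Cyp2a4, Cyp2a5, Cyp2a12, Cyp2d40, Cyp2d9 and Cyp2f2 in G6PCp, G6PC, WTp and WT livers, with the mean (bar) and SD (whisker). Cyp2d40 and Cyp2f2 are highest in G6PC livers (medians 146 and 560 CPM), Cyp2a5 in G6PCp livers (198) and Cyp2d9 in the 2 groups with the ChREBP hairpin (257 and 288).

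The Cyp2c genes of chromosome 19, which oxidise drugs, retinoids and arachidonic acid, held most of the lower calls in G6PCp livers. Cyp2c50 ranged from 42.0 to 128 CPM (median 87.1) in G6PCp, 101 to 312 (202) in G6PC, 166 to 389 (199) in WTp and 170 to 357 (268) in WT livers. Its G6PCp range did not overlap the WTp or the WT range. The log2 fold change was -1.25 ± 0.21 (SE) in G6PCp against G6PC livers (adjusted p = 1.70e-04), -1.42 against WTp (1.87e-05) and -1.62 against WT (1.33e-06). These calls also stood without the 4 libraries, at -0.99 (adjusted p = 0.0218), -1.17 (0.00166) and -1.37 (3.58e-04).

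Its neighbour Cyp2c54 was lower still, at 1.105 to 13.98 CPM (median 8.44) in G6PCp, 5.57 to 40.0 (20.8) in G6PC, 17.9 to 47.5 (26.8) in WTp and 13.9 to 62.7 (41.7) in WT livers. All 9 G6PCp libraries lay below the median of each other group. Its log2 fold change in G6PCp against G6PC livers was -1.51 (adjusted p = 0.00678, and -1.15, 0.157, without the 4 libraries). Against WTp it was -1.99 (2.33e-04) and against WT -2.35 ± 0.34 SE (9.86e-06), the lowest of any P450 gene here. Cyp2c37, the third of this trio, ranged from 33.8 to 102 CPM (59.1) in G6PCp, 50.5 to 143 (76.2) in G6PC, 58.1 to 133 (88.7) in WTp and 74.4 to 104 (88.0) in WT livers. Its log2 fold change was -0.61 in G6PCp against WTp livers (adjusted p = 0.0273) and -0.59 against WT (0.0284). Both calls were lost without the 4 libraries (-0.40, 0.221, and -0.38, 0.370) and when single libraries were left out (s12, s14, s15, s16, s28, s29, s30 or s32 for the first, adjusted p up to 0.0805, and s4, s29, s30 or s32 for the second, up to 0.0695). Against G6PC livers Cyp2c37 had -0.52 (adjusted p = 0.0756, and 0.0357 without s20 or 0.0156 without s26), with -0.31 (0.601) without the 4 libraries. With the tags of the trio added up, the log2 fold change was -1.03 in G6PCp against G6PC (adjusted p = 0.00108), -1.201 against WTp (1.29e-04) and -1.36 against WT (1.36e-05).

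Cyp2c29, a CAR target and the most abundant Cyp2c gene, ranged from 205 to 865 CPM (median 415) in G6PCp, 732 to 1461 (1017) in G6PC, 457 to 1137 (557) in WTp and 343 to 964 (745) in WT livers. All 9 G6PCp libraries were below the G6PC median, with 1 of them, s31, inside the G6PC range. It was lower in G6PCp than in G6PC livers (log2 fold change -1.22 ± 0.22 SE, adjusted p = 4.11e-04) and than in WT livers (-0.75, 0.0176). Without the 4 libraries the values were -0.90 (adjusted p = 0.0526) and -0.44 (0.370). No 3' window of Cyp2c29 is shared with another gene, and with Cyp2c38 and Cyp2c39 added the value against G6PC was -1.18 (adjusted p = 2.98e-04).

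Among the Cyp2c40 group, whose reads overlap most, levels were low. Cyp2c40 ranged from 2.35 to 17.2 CPM (median 4.78) in G6PCp, 3.996 to 21.2 (13.9) in G6PC, 5.63 to 22.7 (14) in WTp and 8.68 to 30.9 (15.7) in WT livers, and was lower in G6PCp than in WT livers (log2 fold change -1.27, adjusted p = 0.00692). Against G6PC livers edgeR gave -0.96 (adjusted p = 0.0723), while DESeq2 (0.0408), limma-voom (0.0367) and limma on the voom values (0.0237) called it, as did edgeR without s21, s28 or s33 (0.0430, 0.0106 and 0.0194). Against WTp livers edgeR gave -0.95 (adjusted p = 0.0614), while DESeq2 (0.0361), limma-voom (0.0254) and limma on the voom values (0.0136) called it, as did edgeR without s14, s28 or s33 (0.0382, 0.00945 and 0.0141). Cyp2c69 ranged from 4.20 to 29.7 CPM (12.9) in G6PCp, 9.73 to 64.6 (17.1) in G6PC, 10.3 to 73.7 (23.1) in WTp and 7.31 to 87.5 (25.5) in WT livers. Its value in G6PCp against WT livers was -1.31 (adjusted p = 0.0345), a call lost without any of s5, s6, s25, s29, s30, s31 or s32 (adjusted p up to 0.134). Without the 4 libraries the value stayed at -1.31 but was not called (0.195). Cyp2c68 ranged from 23.3 to 56.9 CPM (29.5) in G6PCp, 35.6 to 47.3 (38.1) in G6PC, 39.5 to 51.8 (45.7) in WTp and 29.1 to 55.8 (42.5) in WT livers, and was lower in G6PCp than in WTp livers (-0.49, adjusted p = 0.0147). Against WT livers edgeR gave -0.36 (adjusted p = 0.0730). There limma-voom (0.0459) and limma on the voom values (0.0495) called it, as did edgeR without s2, s8, s28 or s33 (0.0464, 0.0341, 0.0400 and 0.00285). Against G6PC livers it had -0.26 (0.258, and -0.40, 0.0307, without s33). Cyp2c67 (medians 13.7, 16.2, 14.3 and 14.4 CPM in G6PCp, G6PC, WTp and WT livers) was called in no comparison. These 4 genes carry the printed HNF4A element in their promoters, and Hnf4a itself had log2 fold changes of -0.26 against WTp (adjusted p = 0.178) and -0.22 against WT (0.276) in G6PCp livers.

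The arachidonate epoxygenase Cyp2c44 had medians of 60.3 CPM in G6PCp and 60.9 in G6PC, against 86.0 in WTp and 81.5 in WT livers, and Cyp2c38 had 26.7, 28.4, 32.3 and 34.0 CPM in the same order. Neither was called, with log2 fold changes in G6PCp against WT livers of -0.35 (adjusted p = 0.298) and -0.37 (0.218).

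**Figure D5:**
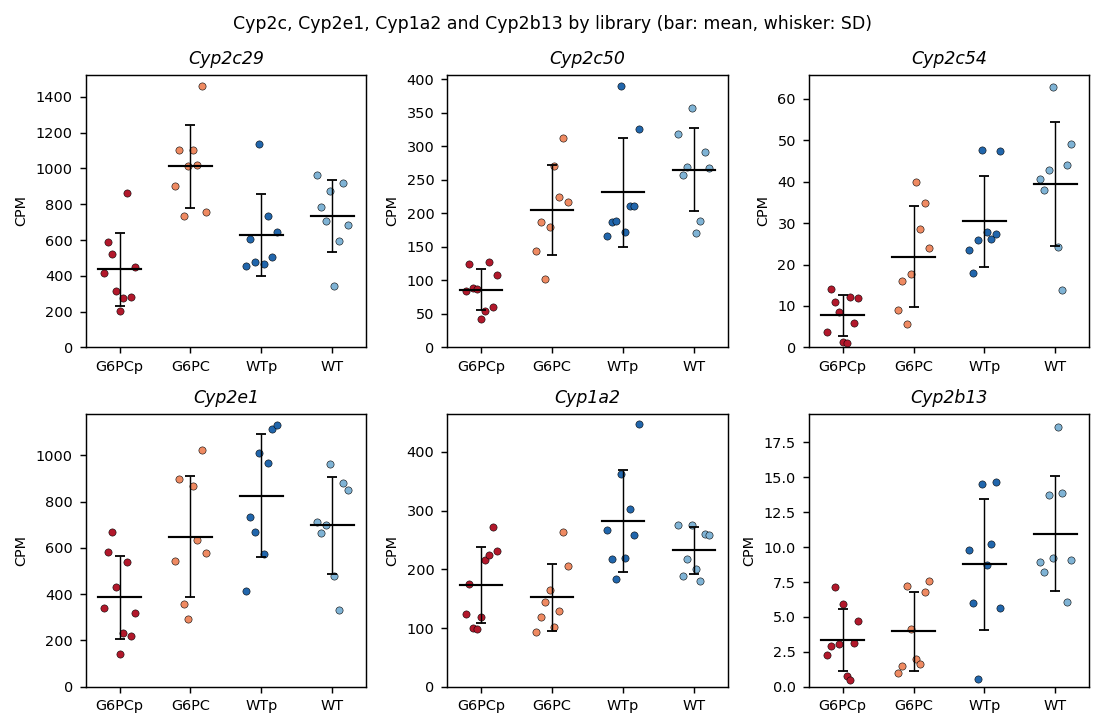
CPM in each library (points) of Cyp2c29, Cyp2c50, Cyp2c54, Cyp2e1, Cyp1a2 and Cyp2b13 in G6PCp, G6PC, WTp and WT livers, with the mean (bar) and SD (whisker). Cyp2c50 lies at 42.0 to 128 CPM in G6PCp livers, below every WTp and WT library, and Cyp2b13 is low in both L-G6pc-/- groups (medians 3.04 and 3.08 CPM).

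Among the Cyp2b genes, Cyp2b10 is the best known target of CAR. Cyp2b10 ranged from 2.95 to 15.6 CPM (median 4.31) in G6PCp, 2.97 to 28.5 (17.5) in G6PC, 2.71 to 39.4 (5.90) in WTp and 7.44 to 32.1 (19.1) in WT livers. It was 2.85-fold lower in G6PCp than in WT livers (log2 fold change -1.51 ± 0.41 SE, adjusted p = 0.0117), with -1.05 (0.275) without the 4 libraries. In G6PCp against G6PC livers it stood at -1.25 (adjusted p = 0.0639) and in WTp against WT livers at -0.86 (0.219). Library s12, with 39.4 CPM, was far above the other WTp libraries, and without it these values were -1.25 (0.0234) and -1.53 (0.0139). The call against G6PC was likewise gained without s17, s19, s26 or s31. Cyp2b13, a female-biased gene, ranged from 0.489 to 7.12 CPM (3.04) in G6PCp, 0.991 to 7.60 (3.08) in G6PC, 0.541 to 14.7 (9.27) in WTp and 6.06 to 18.6 (9.16) in WT livers. The gene was lower wherever G6pc was missing: by a log2 fold change of -1.49 in G6PC against WT (adjusted p = 0.0240), -1.41 in G6PCp against WTp (0.0175) and -1.77 in G6PCp against WT livers (0.00141). The first of these was lost without any of s5, s17, s18, s21 or s22 (adjusted p up to 0.0815) and the second without s15 (0.0517). Cyp2b9, whose upstream bases match those of Cyp2b13 at all but 2 positions, had medians of 84.0, 118, 48.5 and 89.9 CPM in G6PCp, G6PC, WTp and WT livers. Its log2 fold change was 0.65 in G6PC against WT livers (adjusted p = 0.106, and 0.0485 with only the groups compared). In G6PCp against G6PC livers it was -0.63 (0.0608, and 0.0285 to 0.0398 without s12, s17 or s26). That difference was called by DESeq2 (0.0486), without the low-count filter (0.0464), with only the groups compared (0.0392) and without s9 and s13 (0.0494). Without the 4 libraries it was -0.42 (0.536). Against WTp livers G6PCp had 0.48 (0.159, and 0.69, 0.0298, without s12). The 2 genes added up gave 0.51 in G6PC against WT livers (0.240) and 0.34 in G6PCp against WTp livers (0.339), the opposite sign to Cyp2b13 alone. However, Cyp2b9 shared no 3' window, and Cyp2b13 shared 7.54% of its windows with Cyp2b10. Cyp2b9 also had the higher level (mean 89.9 CPM, against 6.67 for Cyp2b13). The sum therefore mostly follows Cyp2b9 and cannot check the Cyp2b13 calls.

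Genes with a fixed place in the lobule were next. Cyp2e1, the pericentral ethanol and acetaminophen oxidase, ranged from 143 to 668 CPM (median 342) in G6PCp, 295 to 1022 (608) in G6PC, 414 to 1130 (851) in WTp and 330 to 964 (706) in WT livers. It was 2.14-fold lower in G6PCp than in WTp livers (log2 fold change -1.10 ± 0.26 SE, adjusted p = 0.00469) and 1.81-fold lower than in WT livers (-0.85, 0.0234). Libraries s29, s30 and s32 had its 3 lowest values (143, 230.5 and 221 CPM), and without the 4 libraries the values were -0.68 (adjusted p = 0.108) and -0.44 (0.455). The call against WT was also lost without s4, s29, s30 or s32 alone (adjusted p up to 0.0589). Against G6PC livers Cyp2e1 had -0.75 (adjusted p = 0.0688), and -0.34 (0.687) without the 4 libraries. It was called there without s19, s20, s26, s27 or s31 (0.028 to 0.049) and without the low-count filter (0.043).

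Cyp1a2, the pericentral AhR target that oxidises caffeine and aromatic amines, ranged from 98.9 to 273 CPM (median 175) in G6PCp, 93.7 to 263 (137) in G6PC, 184 to 447 (263) in WTp and 181 to 276 (238) in WT livers. The ranges overlapped, and G6PCp was below WTp by a log2 fold change of -0.70 (adjusted p = 0.0200, 0.0695 without s16). In G6PC against WT livers the value was -0.60 (adjusted p = 0.120, and -0.76, 0.0309, without s23). Cyp2f2, the periportal gene of the set, ranged from 141 to 468 CPM (271) in G6PCp, 239 to 770 (560) in G6PC, 57.7 to 456 (163) in WTp and 145 to 376 (239) in WT livers. It was higher in G6PC than in WT livers (log2 fold change 1.08, adjusted p = 0.0429) and 1.98-fold lower in G6PCp than in G6PC livers (-0.99, 0.0346, and -0.84, 0.331 without the 4 libraries). The G6PC against WT call was lost without any of s1, s2, s5 to s7, s18 or s20 to s25 (adjusted p up to 0.0991), and the G6PCp against G6PC call without any of s18, s20, s22 to s24 or s28 to s30 (up to 0.0757). Of 9 pericentral P450 genes, 5 were lower in G6PCp than in WT livers (Cyp2c29, Cyp2c37, Cyp2c50, Cyp2c54 and Cyp2e1) and 1 (Cyp2a5) was higher (6.37% of all genes lower, 6.87% higher). The other 3, Cyp1a2 (log2 fold change -0.42, adjusted p = 0.187), Cyp3a11 and Cyp3a25, were not called there. Leaving out the 4 libraries gave 2 lower, Cyp2c50 and Cyp2c54, and 0 higher.

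The Cyp2j genes, arachidonate epoxygenases, changed little in size. Cyp2j5 ranged from 349 to 635 CPM (median 504) in G6PCp, 451 to 724 (629) in G6PC, 487 to 649 (572) in WTp and 590 to 747 (685) in WT livers, and was 1.31-fold lower in G6PCp than in WT livers (log2 fold change -0.39, adjusted p = 0.0133), with -0.20 (0.401) without the 4 libraries. Cyp2j6 ranged from 39.8 to 76.1 CPM (54.2) in G6PCp, 32.3 to 88.6 (62.5) in G6PC, 26.6 to 47.7 (37.1) in WTp and 37.6 to 74.4 (60.9) in WT livers. It fell by 0.67 on the log2 scale in WTp against WT livers (adjusted p = 0.0184) and was higher in G6PCp than in WTp livers (0.58, 0.0226, and 0.0570 without s26). Both calls were lost without WTp libraries s9 and s13, at -0.64 (adjusted p = 0.0522) and 0.55 (0.0548). These were the highest WTp libraries on the main axis of variation over all tested genes (19.8 and 21.2), with s11 next at 15.7. Like Cyp2a12, Cyp2j6 had its lowest median in WTp livers. Cyp2j9 was found at 0 to 12.3 CPM and was not called. Nor were Cyp2r1, a vitamin D hydroxylase (medians 7.82, 9.70, 8.29 and 11.7 CPM in G6PCp, G6PC, WTp and WT livers), and Cyp2u1, a fatty acid hydroxylase (57.1, 51.0, 75.4 and 48.3 CPM), whose log2 fold change in WTp against WT livers was 0.62 (adjusted p = 0.0729, and 0.0392 without s12 or 0.0326 without s8).

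In family 3, Cyp3a11, the main drug-metabolising P450 of mouse liver and a PXR target, ranged from 608 to 1506 CPM (median 921) in G6PCp, 901 to 1786 (1249) in G6PC, 324 to 1225 (839) in WTp and 431 to 1431 (777) in WT livers. No comparison was called, the nearest being G6PC against WT livers (log2 fold change 0.59 ± 0.22 SE, adjusted p = 0.160, and 0.0483 without s4). Cyp3a13 ranged from 144 to 292 CPM (202) in G6PCp, 194 to 320 (239) in G6PC, 181 to 281 (250) in WTp and 238 to 380 (281) in WT livers. It was 1.38-fold lower in G6PCp than in WT livers (-0.46, adjusted p = 0.0144), with -0.32 (0.194) without the 4 libraries. Cyp3a25 had medians of 127, 171, 160 and 180 CPM in G6PCp, G6PC, WTp and WT livers and was not called. Cyp3a59 did not pass the filter, at 0 to 10.5 CPM.

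Whether the ChREBP hairpin acted differently with and without G6pc was tested as the difference of its effects (G6PCp minus G6PC, less WTp minus WT). In that test 0.0589% of all genes were called higher and 0.0196% lower, 8 genes in all, and 2 of these were P450 genes (3.03% of the 33 in each direction). Cyp2a5 had a difference of 1.78 ± 0.37 (SE, adjusted p = 0.0365), from 1.37 in L-G6pc-/- livers against -0.41 in L-G6pc+/+ livers. Cyp2d40 had -1.41 ± 0.30 (adjusted p = 0.0486), from -1.75 in L-G6pc-/- livers against -0.34 in L-G6pc+/+ livers. Neither difference was called with paralogs added up: it was 0.73 for Cyp2a4 and Cyp2a5 together (adjusted p = 0.428) and -0.37 for Cyp2d9, Cyp2d10, Cyp2d11, Cyp2d34 and Cyp2d40 together (0.461). The last sum mostly follows the more abundant Cyp2d9 and Cyp2d10 and cannot check Cyp2d40. Both single-gene values lay close to the threshold. The Cyp2a5 call was lost when any of 15 single libraries was left out (s2 to s4, s7 to s9, s11, s12, s15, s16, s19, s21, s22, s25 or s29, adjusted p up to 0.0834) and the Cyp2d40 call for any of 24 (all but s10, s11, s13, s14, s17, s18, s24, s26 and s31, up to 0.0976). Without the 4 libraries that stood apart the values were 1.202 (adjusted p = 0.0922) and -1.16 (0.0964), while Cyp2a12 was then called (0.92, 0.0363, against 0.70 and 0.188 with all libraries). DESeq2 also called Cyp2c50 (-1.05, adjusted p = 0.0497), for which edgeR gave -1.05 (0.140). At an unadjusted edgeR p under 0.05, 10 P450 genes and 1226 of all 10179 genes differed.

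The receptors that drive these genes were examined as a list of 21 tested genes. For this and the lists that follow, counts without s29, s30, s32 and s33 were added after the data were seen. Of the 10399 genes then tested, 175 were higher and 146 lower in G6PCp than in WT livers. Against G6PC livers these were 36 and 70, and against WTp livers 551 and 362. Nr1i3 (CAR) ranged from 47.0 to 203 CPM (median 83.7) in G6PCp, 76.3 to 162 (118) in G6PC, 98.4 to 233 (164) in WTp and 120 to 259 (200) in WT livers, and was lower in G6PCp than in WT livers (log2 fold change -1.05 ± 0.19 SE, adjusted p = 2.53e-04, and -1.11, 3.58e-04, without the 4). Of 8 P450 genes known as CAR or PXR targets, 6 were lower in G6PCp than in WT livers (Cyp2b10, Cyp2c29, Cyp2c37, Cyp2c50, Cyp2c54 and Cyp3a13), Cyp2a5 was higher and Cyp3a11 was not called, against 6.37% of all genes lower and 6.87% higher. Only Cyp2c50 and Cyp2c54 of the 8 were called without the 4 libraries, both lower. In G6PCp against G6PC livers 3 of the 8 were lower (Cyp2c29, Cyp2c50 and Cyp2c54) and Cyp2a5 was higher (4.23% and 3.33% of all genes). Nr1i3 was not called there, and without the 4 libraries only Cyp2c50 of the 8 was. Against WTp livers 3 of the 8 were lower (Cyp2c37, Cyp2c50 and Cyp2c54) and Cyp2a5 was higher (4.9% and 6.14% of all genes), and Nr1i3 was lower. Nr1i2 (PXR) had medians of 216, 178, 176 and 206 CPM in G6PCp, G6PC, WTp and WT livers and was higher in G6PCp than in WTp livers (0.41, 0.0231, and 0.42, 0.0525, without the 4). Ahr was lower in G6PC than in WT livers (medians 10.9 and 21.2 CPM, log2 fold change -0.74, adjusted p = 0.0448), while its target Tiparp was higher there (1.66, 2.38e-04). In G6PCp against WT livers 5 of the 21 fell (Foxa3, Nr1i3, Nr3c1, Ppara and Rxra) and Nfe2l2 rose (0.60, 3.36e-04), against 6.37% and 6.87% of all genes. With the 4 left out Foxa3 and Nr1i3 fell and Nfe2l2 rose. In G6PCp against WTp livers 7 of the 21 fell (Foxa1, Foxa2, Foxa3, Nr0b2, Nr1i3, Nr3c1 and Ppara). Nfe2l2 and Nr1i2 rose there, against 4.9% of all genes lower and 6.14% higher. With the 4 left out 6 fell and 1 rose against WTp. In G6PCp against G6PC livers Cebpa and Tiparp fell and none rose (4.23% and 3.33% of all genes), and without the 4 none of the 21 was called.

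Por, which supplies the electrons, had medians of 181, 160, 174 and 145 CPM in G6PCp, G6PC, WTp and WT livers and was called in no comparison. Among the 6 electron donors and partners tested, Cyb5a, Cyb5b and Pgrmc2 were lower in G6PCp than in WT livers (log2 fold changes -0.35, -0.51 and -0.42, adjusted p = 0.0132, 6.71e-04 and 0.0146), and none was called there without the 4 libraries. Of all genes, 6.37% were lower there. Of 13 genes of haem synthesis and breakdown, Blvrb, a biliverdin reductase, was higher in G6PCp than in WT livers (0.67, 0.00352, and 0.20, 0.441, without the 4) and none was lower. Among 25 genes of conjugation, export and antioxidant defence, 12 were higher and 3 lower in that comparison (6.87% and 6.37% of all genes), with a median log2 fold change of 0.51 (0.01 over all genes), and in G6PCp against G6PC livers 11 were higher and none lower (3.33% and 4.23% of all genes). Without the 4 libraries 4 were higher and 1 lower than in WT livers (Ephx1, Gstm1, Gstm3 and Ugdh, and Ces2a), and 3 were higher than in G6PC livers (Gstm1, Gstm3 and Ugdh). The smallest p-values in G6PCp against G6PC livers were those of Ugdh (log2 fold change 1.46, adjusted p = 3.16e-06), Gstm3 (3.03, 1.51e-05), Gstm1 (1.34, 1.15e-04) and Ugt2b35 (0.86, 0.000821). Without the 4 libraries these were 0.95 (adjusted p = 0.00136), 1.55 (0.00976), 0.62 (0.0464) and 0.50 (0.150) in the same order.

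Genes outside these families gave further context. Of 16 other male-biased genes, 6 were higher in WTp than in WT livers, as Cyp2d9 was (C6, Cyp4a12a, Cyp4a12b, Cyp7b1, Selenbp2 and Serpina1e), and 5 of these were also higher in G6PCp than in G6PC livers (2.16% and 3.33% of all genes). In G6PCp against WTp livers 0 of the 16 were higher and 8 lower (4.9% of all genes lower), with a median log2 fold change of -0.48 (-0.01 over all genes). In G6PC against WT livers 0 were higher and 3 lower (Cyp7b1, Igf1 and Serpina1e, against 2.2% and 1.03% of all genes), and in G6PCp against WT livers Cyp4a12b was higher and none lower. The 4 libraries left out, 3 were higher in G6PCp than in G6PC livers (Cyp7b1, Selenbp2 and Serpina1e) and 3 lower in G6PCp than in WTp livers (Selenbp2, Serpina1e and Socs2). Of 6 female-biased P450 genes tested, 4 were lower in G6PCp than in WT livers (Cyp2b10, Cyp2b13, Cyp2c40 and Cyp2c69) and Cyp2a4 was higher, and of 11 other female-biased genes 4 were lower and none higher (6.37% of all genes lower, 6.87% higher). Among these, Cyp2b13 and Cyp2c40 stayed lower without the 4 libraries, while Cyp2b10, Cyp2c69 and Cyp2a4 were not called, and 1 of the 11 others was lower (Slc22a26). Of 16 other pericentral genes, 5 were lower and none higher in G6PCp than in WT livers, and of 16 other periportal genes 4 were higher and 1 lower (again 6.37% of all genes lower, 6.87% higher). The 20 P450 genes of other families had 1 higher (Cyp4a12b) and 4 lower there (Cyp17a1, Cyp27a1, Cyp4a10 and Cyp4f14), and 20 acute phase genes had 1 higher and 3 lower. Without the 4 libraries the other pericentral genes had 2 lower (Cyp27a1 and Rgn), the other periportal genes 3 higher and 0 lower, the P450 genes of other families 1 higher (Cyp4a12b) and 1 lower (Cyp27a1), and the acute phase genes 0 in either direction.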

How the data were processed

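Liver RNA of 33 libraries was sequenced from the 3' end. By the submitters' processing notes and the methods, the authors used HISAT (GRCm38) for alignment, SAMtools for sorting and HTSeq for gene counts; the versions, the strand setting and the handling of reads matching several genes are not given in the sources used here. The deposited raw counts per gene were tested. The deposited voom table, a signal that the authors scaled per library, defined the genes and served as an alternative. Counts were normalized by TMM and genes filtered with filterByExpr (minimum count 10, minimum total 15), leaving 10179. All 4 groups entered a single edgeR 4.0.16 quasi-likelihood fit (R 4.3.3), with Benjamini-Hochberg adjustment over all genes and a threshold of 0.05, for 6 comparisons. Levels are TMM-normalized CPM. Alternatives were DESeq2 1.42.0, limma 3.58.1, other scalings and filters, paralogs summed, and libraries left out.

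The genes and lists were chosen with earlier results of these data known. By rule every tested P450 gene was named, values in every group were given for those called and for the 6 most abundant, and up to 4 called genes per other list and comparison were named. Mlxipl, Pklr, Nr1i2, Nr1i3, Ahr and Por were always named, and further genes of short counts were named after their values were seen.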

Additional observations from a re-analysis of the deposited data

Results flagged for a closer look

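In 6 of 96 combinations of gene and group, 1 library lay far above the others; chance gives about 1 in 20. Cyp2b10 reached 39.41 CPM in WTp library s12, the next being 12.72, and Cyp2c29 reached 1136.5 CPM in the same library, the next being 735.7. Cyp2c69 was 73.65 CPM in WTp library s13 (next 27.6) and Cyp3a11 was 1786.3 CPM in G6PC library s21 (next 1310.1). In G6PCp livers Cyp2c68 was 56.87 CPM in s33 (next 40.18) and Cyp2d40 was 88.43 CPM in s31 (next 55.54). The effect of the ChREBP hairpin differed between L-G6pc-/- and L-G6pc+/+ livers for Cyp2a5, by 1.778 on the log2 scale (edgeR adjusted p = 0.0365), and for Cyp2d40, by -1.41 (0.0486). With paralogs added up neither was called, at 0.73 for Cyp2a4 and Cyp2a5 (adjusted p = 0.428) and -0.37 for Cyp2d40 with Cyp2d9, Cyp2d10, Cyp2d11 and Cyp2d34 (0.461). The last sum mostly follows the more abundant Cyp2d9 and Cyp2d10 and cannot check Cyp2d40.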

How the results depend on the processing

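Of the 44 calls of P450 genes, 44 were kept with library size only, without a low-count filter, with a mean of at least 5 CPM and with DESeq2, 43 with DESeq2 size factors, 39 with limma-voom, 38 with limma on the deposited voom values, 41 of 42 with only the groups compared, 41 without s9 and s13, 24 without s29, s30, s32 and s33, and 30 whichever single library was left out. The count of P450 genes called in G6PC against WT livers was 2 with limma on the voom values. Without s29, s30, s32 and s33 it was 2 in G6PCp against G6PC and 4 in G6PCp against WT livers. The difference between hairpin effects gave 1 call with DESeq2 size factors, 0 with limma-voom and with limma on the voom values, 1 without the 4 libraries (Cyp2a12) and 1 without s9 and s13. Leaving out each library gave 2 to 5 calls in G6PC against WT, 3 to 5 in WTp against WT, 5 to 10 in G6PCp against G6PC, 11 to 14 in G6PCp against WTp, 12 to 16 in G6PCp against WT livers and 0 to 2 for the difference. With paralogs summed, 15 calls were kept, 8 were lost and 3 changed sign: Cyp2b13 to 0.51 in G6PC against WT and 0.34 in G6PCp against WTp livers, and Cyp2d9 to -0.13 in G6PCp against G6PC livers. The sums that hold Cyp2b13, Cyp2d9 or Cyp2d40 also hold more abundant genes, so they cannot check the calls of these genes. Cyp2j6 lost both calls without s9 and s13. With library size only, the median of all genes in G6PCp against G6PC livers moved to 0.11, and the split of all genes was 848 higher and 271 lower (339 and 431 with TMM), against WTp 904 and 318 (6.14% and 4.9% of genes with TMM) and against WT 965 and 450 (699 and 648). For the difference over all genes, 8 genes were called by edgeR, and DESeq2 called 53 higher and 23 lower. Except where stated, the cause was not tested. No paired analysis was possible because the groups share no library numbers. By their shared 3' windows, reads shared between paralogs limit values in Cyp2a, Cyp2c and Cyp2d most. The last 500 bases of Cyp2c29, Cyp2c38, Cyp2c44 and Cyp2d22 shared no window, but windows of Cyp2d9 and Cyp2d26 matched transcripts of Cyp2d22.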
